A study of Mus musculus with 12 samples.

Results

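The genes described here are 10 transcripts that mark T cells and natural killer (NK) cells, followed through RNA of visceral white adipose tissue from FVB/N mice. They were chosen by symbol, as Cd3d, Cd3e, Cd3g, Cd4, Cd8a, Cd8b1, Nkg7, Gzma, Klrb1c and Ncr1, and all 10 were found among the 50559 gene rows of the count files. The rule uses symbols alone.

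The 12 libraries fell into 4 groups of 3. Transgenic mice, alphaMHC tTA x alphaMHC TGFb, carried a TGF-b1 transgene under the alpha-myosin heavy chain promoter, which is active in the heart, and received either a high-fat diet or a control diet. Wild-type mice in this study carried the alphaMHC tTA driver alone and received the same diets, so the driver was shared by all groups. The high-fat diet supplied 60% of its energy as fat at 5.21 kcal/g, and the control chow 17% at 3.1 kcal/g. Mice were 8 to 10 weeks old when feeding began, and it lasted 2 or 6 weeks, without a statement of which duration belongs to which library. Nothing in the labels ties the libraries to separate mice, and the p-values are therefore about variation among libraries, part of which could be technical. Gene counts per library were 20.1 to 21.3 M.

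T cells recognise antigen through a T cell receptor that reaches the cell surface only with the CD3 chains, which carry its signal inward. The coreceptors CD4 and CD8 bind MHC class II and MHC class I molecules and divide most T cells into helper and cytotoxic classes. NK cells lack this receptor. They weigh signals of activating receptors, such as NKp46, against those of inhibitory receptors, and kill through the same granules of granzymes and perforin that cytotoxic T cells use. In adipose tissue of mice, both cell types are known residents, and in obese mice CD8 T cells have been described to accumulate near macrophages.

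All 10 genes were scarce in this tissue, with 1 to 66 counts per gene and library. That fixes their precision, since a count of 4 in a library of this depth carries a wide counting error. In bulk tissue, more cells of a type and more RNA per cell cannot be told apart. By comparison Adipoq, the gene of the adipocyte hormone adiponectin, averaged 4401 counts per 1000000 gene counts (CPM) over the 12 libraries. The T cell receptor alpha constant gene Trac was listed at 0 in every library, while rows named Tcra and Tcrb did hold counts.

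Some libraries stood apart. The first transgenic high-fat library held 12 counts over the 3 CD3 chains, against 102 and 60 in the other transgenic high-fat libraries, and it also had the highest macrophage marker sum, 454 CPM. The third wild-type control and the second transgenic control libraries were low in NK receptors, with 18 and 15 counts of Ncr1 and Klrb1c together. Epithelial markers summed to 209.9 CPM in the second transgenic control library and 32.2 CPM in the first wild-type control library, against 2.66 to 8.31 CPM in the others. Striated muscle markers summed to 589.5 CPM in the third transgenic control library and 372.9 CPM in the third wild-type high-fat library, against at most 78.1 CPM elsewhere.

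The promoters of these genes are where the transcription factors of T and NK cells are known to act, among them members of the ETS and RUNX families and E proteins. The 250 bases upstream of a start in the RefSeq promoter table are shown for 3 genes that rose with the diet, Cd3d, Cd3e and Cd8a, and for 2 that did not pass the test, Gzma and Ncr1. They come from RefSeq on assembly GRCm38.p6, a C57BL/6J reference, whereas these mice were FVB/N, and each is written 5′ to 3′ on the strand of the gene. For Cd3d and Cd3e that start lies inside the annotated span of the gene given with its values, so the window covers its first bases. Capitals mark CAGGAA (an ETS core), TGTGGT (a RUNX core) or CACCTG (an E-box), or the reverse complement of one of them.
Cd3d, chr9:44981536-44981785, plus strand: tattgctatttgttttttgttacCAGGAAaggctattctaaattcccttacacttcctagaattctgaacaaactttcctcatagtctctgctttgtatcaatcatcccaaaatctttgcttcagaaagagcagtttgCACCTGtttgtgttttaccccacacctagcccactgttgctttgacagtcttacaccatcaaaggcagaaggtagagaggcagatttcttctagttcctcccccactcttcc
Cd3e, chr9:45009612-45009861, minus strand: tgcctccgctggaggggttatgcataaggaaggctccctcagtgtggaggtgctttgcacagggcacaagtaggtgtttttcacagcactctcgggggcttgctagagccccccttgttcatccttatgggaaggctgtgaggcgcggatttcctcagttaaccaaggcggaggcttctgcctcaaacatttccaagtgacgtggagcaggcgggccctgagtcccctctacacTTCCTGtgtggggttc
Cd8a, chr6:71373177-71373426, plus strand: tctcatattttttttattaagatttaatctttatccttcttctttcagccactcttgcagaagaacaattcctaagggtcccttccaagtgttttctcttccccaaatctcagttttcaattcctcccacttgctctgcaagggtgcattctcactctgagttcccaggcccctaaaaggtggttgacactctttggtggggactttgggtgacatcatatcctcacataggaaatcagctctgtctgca
Gzma, chr13:113100982-113101231, minus strand: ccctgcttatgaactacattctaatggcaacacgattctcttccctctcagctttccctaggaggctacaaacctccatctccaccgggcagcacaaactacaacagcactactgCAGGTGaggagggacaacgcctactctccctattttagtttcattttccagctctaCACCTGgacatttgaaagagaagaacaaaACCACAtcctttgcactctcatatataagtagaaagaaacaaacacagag
Ncr1, chr7:4337465-4337714, plus strand: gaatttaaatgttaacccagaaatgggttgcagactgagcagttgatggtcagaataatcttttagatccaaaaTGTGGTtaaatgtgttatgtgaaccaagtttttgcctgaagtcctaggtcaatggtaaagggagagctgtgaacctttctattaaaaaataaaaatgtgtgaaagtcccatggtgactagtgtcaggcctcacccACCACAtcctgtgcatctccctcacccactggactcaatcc
CAGGAA occurred in 1 copy each in the Cd3d and Cd3e windows, CACCTG in 1 copy for Cd3d and 2 copies for Gzma, and TGTGGT in 1 copy for Gzma and 2 copies for Ncr1. The Cd8a window held none of the 3. Across 27025 promoters of this length, 25.4% held CAGGAA, 14.2% held TGTGGT and 17.1% held CACCTG on either strand. The matches describe letters only, and no binding was measured.

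Of the CD3 chains, Cd3d and Cd3e rose with the high-fat diet averaged over genotypes, and Cd3g did not pass the test. Cd3d, which encodes the delta chain (chr9:44981769-44987052), had 4, 20 and 14 counts in transgenic high-fat libraries, against 4, 2 and 2 in transgenic control libraries. It had 16, 16 and 14 counts in wild-type high-fat libraries, against 6, 10 and 8 in wild-type control libraries. All wild-type high-fat libraries therefore lay above all wild-type controls, whereas in transgenic tissue the first high-fat library tied with a control. Averaged over genotypes, the diet difference of Cd3d was 1.52 on the log2 scale (SE 0.39), with an adjusted p of 0.0200 by edgeR's quasi-likelihood test with Benjamini-Hochberg adjustment over all genes. Within transgenic tissue it rose by 2.19 (SE 0.59, adjusted p = 0.0401), a call that was lost in 11 of the 12 fits that left out 1 library. Within wild-type tissue the difference was 0.85 (SE 0.50, adjusted p = 0.398).

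Cd3e, the epsilon chain (chr9:44998735-45009663), had 3, 36 and 18 counts in transgenic high-fat libraries, against 7, 4 and 4 in transgenic controls. Wild-type tissue had 18, 26 and 14 counts on the high-fat diet, against 11, 6 and 1 on the control diet. The first transgenic high-fat library was below every transgenic control, and the wild-type groups did not overlap. Averaged over genotypes, Cd3e rose by 1.73 (SE 0.55, edgeR adjusted p = 0.0473), a call that was lost in 10 of the 12 fits that left out 1 library. The differences within transgenic tissue (1.89, SE 0.78) and within wild-type tissue (1.57, SE 0.76) did not pass the test.

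Cd3g, the gamma chain (chr9:44969572-44980431), was the most counted CD3 chain. It had 5, 46 and 28 counts in transgenic high-fat libraries, against 24, 12 and 15 in transgenic controls, and 28, 33 and 36 counts in wild-type high-fat libraries, against 22, 17 and 16 in wild-type controls. Only the wild-type groups were separate. Its difference averaged over genotypes was 0.68 (SE 0.39, edgeR adjusted p = 0.251), which did not pass the test.

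Cd3g made up 45.4% of CD3 counts in transgenic high-fat libraries, against 68.9% in transgenic controls, and 48.3% in wild-type high-fat libraries, against 56.7% in wild-type controls. The wild-type intervals overlapped (41.2% to 55.4% on the high-fat diet and 46.3% to 66.7% on the control diet), as did the wild-type libraries. In transgenic tissue the summed intervals were separate (37.9% to 53.1% on the high-fat diet and 57.1% to 79.2% on the control diet), as were the shares of the libraries. The counting intervals of single transgenic libraries overlapped between the diets. Summed over genotypes, Cd3g held 46.9% (176 of 375 counts, exact 95% interval 41.8% to 52.1%) on the high-fat diet, against 62.0% (106 of 171, 54.3% to 69.3%) on the control diet. These intervals cover counting error only, and the shares were not tested over libraries.

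**Figure D1:**
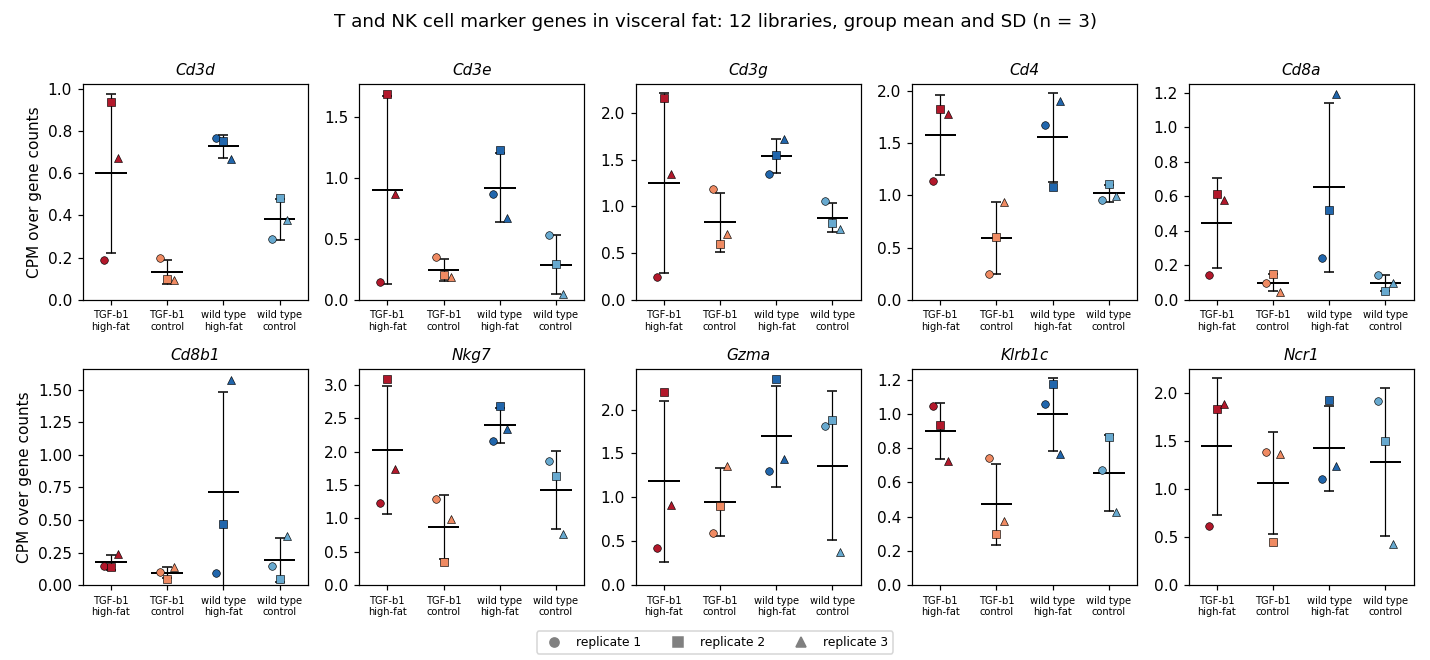
Level of each of the 10 genes in every library, in CPM of the library's gene counts, with points for libraries and the mean and SD of the 3 libraries of each group. The high-fat groups are drawn left of their controls, bars are cut at 0, and the first transgenic high-fat library, where the 3 CD3 chains sum to 0.570 CPM, lies low in the CD3 panels.

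Among the coreceptors, Cd8a and Cd4 rose with the diet averaged over genotypes. Cd8a, the CD8 alpha chain (chr6:71373427-71379171), had 3, 13 and 12 counts in transgenic high-fat libraries, against 2, 3 and 1 in transgenic controls. It had 5, 11 and 25 counts in wild-type high-fat libraries, against 3, 1 and 2 in wild-type controls. No control library reached more than 3 counts, and the lowest transgenic high-fat library equalled the highest control. The difference was 2.38 (SE 0.55, edgeR adjusted p = 0.0127), and it did not pass within transgenic tissue (2.14, SE 0.79, adjusted p = 0.112) or within wild-type tissue (2.62, SE 0.77, adjusted p = 0.107). In raw counts this was 69 on the high-fat diet against 12 on the control diet, a depth-scaled ratio of 5.67 with an exact 95% counting interval of 3.05 to 11.5. Cd8a passed the filter on low counts only through 4 high-fat libraries, as no control library reached 0.478 CPM, the level that 10 counts represent in the median library.

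Cd8b1, the CD8 beta chain (chr6:71322788-71337492), did not pass that filter. It had 3, 3 and 5 counts in transgenic high-fat libraries, against 2, 1 and 3 in transgenic controls, and 2, 10 and 33 in wild-type high-fat libraries, against 3, 1 and 8 in wild-type controls. The third wild-type high-fat library alone held 33 of the 45 counts of its group. In the fit without the filter the difference averaged over genotypes was 1.33 (SE 0.61, edgeR adjusted p = 0.212). Both CD8 chains were highest in the third wild-type high-fat library, with 25 counts of Cd8a and 33 of Cd8b1. They differed in transgenic high-fat libraries 2 and 3, which held 13 and 12 counts of Cd8a but 3 and 5 counts of Cd8b1. Pearson's r of their log2 CPM was 0.68 over the 12 libraries.

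Cd4 (chr6:124864693-124888247), which some dendritic cells and macrophages also express, had 24, 39 and 37 counts in transgenic high-fat libraries, against 5, 12 and 20 in transgenic controls. These groups did not overlap. It had 35, 23 and 40 counts in wild-type high-fat libraries, against 20, 23 and 21 in wild-type controls, where the lowest high-fat library equalled the highest control. Averaged over genotypes Cd4 rose by 0.99 (SE 0.29, edgeR adjusted p = 0.0342), a call that was lost in 9 of those 12 fits. Within transgenic tissue its difference of 1.43 (SE 0.41, adjusted p = 0.0510) just missed the threshold, and within wild-type tissue it was 0.54 (SE 0.40, adjusted p = 0.507). Cd8a made up 25.8% of Cd4 and Cd8a counts on the high-fat diet (69 of 267, exact 95% interval 20.7% to 31.5%), against 10.6% on the control diet (12 of 113, 5.61% to 17.8%), without a test over libraries. By genotype the share was 21.9% in transgenic high-fat tissue, against 14.0% in transgenic controls, with overlapping intervals, and 29.5% in wild-type high-fat tissue, against 8.57% in wild-type controls. The first transgenic control library, at 28.6% of 7 counts, was above every transgenic high-fat library. Wild-type libraries overlapped in this share too, as the first high-fat library, at 12.5% of 40 counts, was below the first control library. The third wild-type high-fat library held 25 of the 41 Cd8a counts behind the wild-type high-fat share.

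The genes shared by cytotoxic T cells and NK cells did not pass the test. Nkg7 (chr7:43437138-43438246), a membrane protein of cytotoxic granules, had the highest group means of the 10 per kilobase of annotated exon. It had 26, 66 and 36 counts in transgenic high-fat libraries, against 26, 7 and 21 in transgenic controls, and 45, 57 and 49 in wild-type high-fat libraries, against 39, 34 and 16 in wild-type controls. The wild-type groups were separate and the transgenic groups tied at 26. Its difference averaged over genotypes was 0.95 (SE 0.33, edgeR adjusted p = 0.0638), and the fit without the filter (adjusted p = 0.0404) and DESeq2 (adjusted p = 0.0325) did call it. Each of those fits called 5 of the 10 genes, where they called 8.97% and 19.4% of all genes.

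Gzma (chr13:113093824-113100981), granzyme A, a serine protease of the granules, varied as much within groups as between them. Transgenic high-fat libraries held 9, 47 and 19 counts, against 12, 18 and 29 in transgenic controls, and wild-type high-fat libraries held 27, 50 and 30, against 38, 39 and 8 in wild-type controls. Both genotypes overlapped across diets. The difference averaged over genotypes was 0.28 (SE 0.44, edgeR adjusted p = 0.698).

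The NK receptor genes likewise did not pass. Klrb1c (chr6:128778485-128788641), which encodes the NK1.1 receptor of mice, had 22, 20 and 15 counts in transgenic high-fat libraries, against 15, 6 and 8 in transgenic controls, and 22, 25 and 16 in wild-type high-fat libraries, against 14, 18 and 9 in wild-type controls. The high-fat libraries were mostly the higher ones, with a tie at 15 in transgenic tissue and an overlap in wild-type tissue, and the difference averaged over genotypes was 0.74 (SE 0.28, edgeR adjusted p = 0.0924). Its Klrb1 paralogs are similar in sequence, and 13.9% of its exon length overlaps the predicted gene Gm44511 on the same strand, so its counts are less certain.

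Ncr1 (chr7:4337715-4345184), the NKp46 receptor that defines NK and related innate lymphoid cells, was nearly level. Transgenic high-fat libraries held 13, 39 and 39 counts, against 28, 9 and 29 in transgenic controls, and wild-type high-fat libraries held 23, 41 and 26, against 40, 31 and 9 in wild-type controls. The groups overlapped in both genotypes, and the difference averaged over genotypes was 0.27 (SE 0.40, edgeR adjusted p = 0.682). Ncr1 and Klrb1c made up 44.5% of the counts of those receptors and the CD3 chains together on the high-fat diet, against 55.8% on the control diet. Single libraries overlapped between the diets, at 36.6% to 74.5% on the high-fat diet and 41.9% to 63.8% on the control diet. No test over libraries was made of this share. The first transgenic high-fat library stood apart in this share too, at 74.5% (35 of 47 counts), against 36.6% and 47.4% in the other transgenic high-fat libraries.

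**Figure D2:**
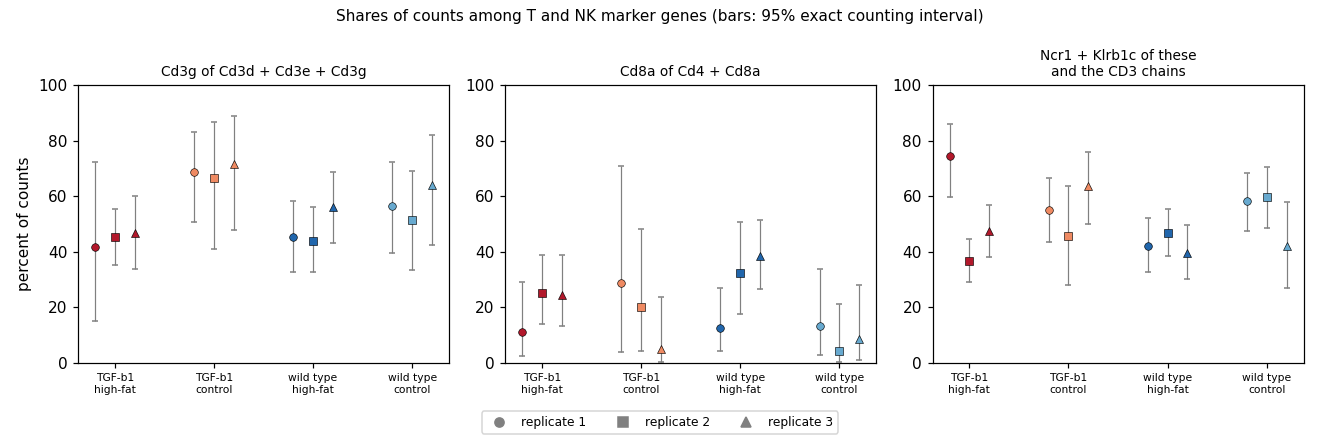
Share of counts per library, in percent, for Cd3g among the 3 CD3 chains, Cd8a among Cd4 and Cd8a, and the NK receptors among those and the CD3 chains. Bars show the exact 95% counting interval of each library. Cd3g shares of 66.7% to 71.4% in transgenic controls lie above 41.7% to 46.7% in transgenic high-fat libraries, but their bars overlap. In wild-type tissue the shares themselves overlap.

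By the tests on 9 of the 10 genes, with Cd8b1 below the filter, 4 genes (Cd3d, Cd3e, Cd4 and Cd8a) rose averaged over genotypes and none fell, where 9.43% of the 16550 genes tested were called higher and 17.4% were called in either direction. Cd8a passed the filter through high-fat libraries alone, and Cd3d and Cd3e each through 5 high-fat and 1 control library, so the count of 4 is a description and does not set these genes apart from the rest. None of the 10 had all 6 high-fat libraries above all 6 controls, as 4.18% of all genes did. The comparison uses the same libraries as the within-genotype comparisons. In transgenic tissue 1 gene, Cd3d, was called, where 5.39% of all genes were called higher and 8.73% in either direction. There 6 genes had an unadjusted p below 0.05, where 25.8% of genes did, and Cd4 alone was higher in every high-fat library than in every control, against 12.6% of all genes. The fit without the filter and DESeq2 each called 2 of the 10 in transgenic tissue, Cd3d and Cd4, where they called 5.81% and 12.1% of all genes. In wild-type tissue none was called by edgeR at an adjusted p below 0.05, where 1.14% of genes were, and 1 had an unadjusted p below 0.05, Cd8a, where 18.1% of genes did. There, 5 genes (Cd3d, Cd3e, Cd3g, Cd8a and Nkg7) were higher in every high-fat library than in every control, against 16.8% of all genes. In the fit without the filter, all 10 differences were positive in each genotype and averaged over them, with medians of 1.10 in transgenic tissue, 0.70 in wild-type tissue and 0.97 averaged. The medians over the 32315 genes in that fit were at 0, and 44.6%, 45.7% and 49.8% of those genes were positive. Several of the 10 genes varied together over the libraries, so their shared sign is not 10 separate results.

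The averaged calls depended on which libraries were included. Cd8a was called in all 12 fits that left out 1 library (differences 1.99 to 2.60), and Cd3d in 11 of 12, the exception being the fit without the second transgenic high-fat library (1.29, adjusted p = 0.0551). Cd4 was called in 3 of 12 fits (differences 0.81 to 1.21, adjusted p up to 0.0766), those without the first transgenic high-fat, the third transgenic control or the second wild-type high-fat library. Cd3e was called in 2 of 12 fits (1.32 to 2.11, adjusted p up to 0.135), those without the first transgenic high-fat or the first wild-type control library. Without the first transgenic high-fat library, 6 genes were called, with Cd3g (0.93, adjusted p = 0.0285) and Nkg7 (1.09, adjusted p = 0.0486) added. Without the second, only Cd8a was called. In transgenic tissue the Cd3d call held in 1 of 12 such fits, the one without the first transgenic high-fat library (2.62, adjusted p = 0.0161). Leaving out the epithelium-rich libraries, picked by their marker sums, left Cd8a as the only call (2.80, adjusted p = 0.0307). Leaving out the muscle-rich libraries left Cd4 as the only call (1.12, adjusted p = 0.0362), and that of Cd8a was lost (1.81, adjusted p = 0.0518). The third wild-type high-fat library, which is muscle-rich, held 25 of the 41 Cd8a counts of its group.

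The authors' deposited tables, fitted with DESeq2, cover the 4 pairwise comparisons, and where they give a member an adjusted p, it was not below 0.05. The smallest in the authors' deposited tables were 0.0939 for Cd4 in transgenic tissue and 0.0961 for Cd8a in wild-type tissue. The authors' deposited tables give no adjusted p for 3 of the 10 genes for diet in transgenic tissue (Cd3d, with an unadjusted p of 0.0235, Cd8a and Cd8b1), for 4 for the transgene on the control diet and for 9 on the high-fat diet.

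No transgene difference of the 10 genes passed the test. On the control diet none of the 10 genes was called by edgeR, where 0.0363% of genes were, and 1 had an unadjusted p below 0.05, where 11.0% of genes did. That gene was Cd3d, with 4, 2 and 2 counts in transgenic controls, against 6, 10 and 8 in wild-type controls, a difference of -1.53 (SE 0.62, adjusted p = 0.385). Cd4 was also lower in every transgenic control than in every wild-type control, at -0.79 (SE 0.42, adjusted p = 0.524), where 6.38% of genes were lower in this way. Without the filter, 9 of the 10 differences were negative, with a median of -0.53 and a range of -1.54 to 0.02. Over the 32315 genes in that fit the median was 0 and 45.5% were positive. As for the diet, the signs of these 10 genes are not separate results.

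On the high-fat diet none of the 10 was called, and edgeR called 0% of all genes at an adjusted p below 0.05, while DESeq2 called 9 genes. None of the 9 tested had an unadjusted p below 0.05, where 6.73% of genes did. The differences without the filter ran from -1.91 for Cd8b1, which rests on the single high wild-type library, to 0.11, with a median of -0.17. The diet differences of transgenic and wild-type tissue were not shown to differ for any of the 10. The interaction of genotype and diet was called for 0% of genes by edgeR and for 23 genes by DESeq2. None of the 9 tested had an unadjusted interaction p below 0.05, where 5.61% of genes did. It was 1.34 for Cd3d (SE 0.78, adjusted p = 0.876) and 0.90 for Cd4 (SE 0.57, adjusted p = 0.887).

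Per kilobase of annotated exon, levels can be set side by side between genes, though only roughly. Nkg7 had the highest mean of the 10 in every group. It was at 2.21 CPM per kilobase in transgenic high-fat tissue, 0.955 in transgenic controls, 2.62 in wild-type high-fat tissue and 1.56 in wild-type controls. Gzma followed at 1.18, 0.944, 1.68 and 1.35 CPM per kilobase in the same groups, and Ncr1 at 0.936, 0.691, 0.925 and 0.830. The T cell genes were lower, with Cd3g at 0.382, 0.253, 0.471 and 0.268 and Cd8a at 0.122, 0.0270, 0.179 and 0.0263. Klrb1c, the other NK receptor gene, was at 0.305, 0.159, 0.337 and 0.221, below Cd3g in every group. By group means, Nkg7, Gzma and Ncr1 were therefore the highest of the 10 on this scale, while Klrb1c lay among the T cell genes. The lengths join all annotated exons of a gene, 914 bases for Nkg7 and 4080 for Cd3e. They can exceed the length of a transcript, so the order between genes is approximate. The libraries of Nkg7 and Gzma, the first in this order, did not overlap in wild-type high-fat tissue, nor did those of Gzma and Ncr1, and both pairs overlapped in the other 3 groups. From Ncr1 down, the neighbours in the order overlapped in every group, except Cd3e and Cd8a in transgenic controls. The gene next below Ncr1 was a T cell gene in every group.

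Across the 12 libraries, log2 CPM of the genes varied together to different degrees. Pearson's r was 0.82 between Nkg7 and Klrb1c and between Cd3e and Cd3g, and 0.02 between Cd8b1 and Gzma. Among 13020 genes of at least 1 CPM, the patterns most like that of Cd3e were those of Tmc5 and Chek2 (r = 0.89 each), Gimap3 (0.88), Gnb4 and Pls3 (0.87 each), and Mospd2, Il18rap and Adgra3 (0.86 each). The patterns most like that of Nkg7 were those of Nr5a2 (0.95), Dll4 (0.92), Il18rap, C1qtnf9, Afap1l1 and Osbpl5 (0.91 each), and Nkd1 and Spn (0.89 each). The median r over all candidates was -0.04 for Cd3e and -0.03 for Nkg7. These correlations describe 12 libraries that share their diet groups.

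Other genes of T cell receptor signalling were listed beside the CD3 chains. Of 16 such genes, 11 were tested, 2 rose (9.43% of all genes were called higher) and none fell. The median difference averaged over genotypes was 0.61, against -0.02 over all genes. Cd6, a costimulatory surface receptor, had a difference of 1.87 (SE 0.38, edgeR adjusted p = 0.00691), and Lcp2, the SLP-76 adaptor also used by myeloid cells, one of 0.87 (SE 0.12, adjusted p = 0.000836). Cd6 lay below 0.478 CPM in every control library, so it passed the filter through high-fat libraries alone. Tcra, picked after its values were seen, rose by 0.83 (SE 0.26, adjusted p = 0.0463), while Tcrb was at 0.01 (SE 0.15, adjusted p = 0.982). Of 12 costimulatory and inhibitory genes, 7 were tested and 1 was called higher, near the 9.43% over all genes. It was Havcr2, which encodes the inhibitory receptor TIM-3 found on T cells and myeloid cells (1.60, SE 0.37, adjusted p = 0.0132), and which also passed the filter through high-fat libraries alone.

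Genes of helper and regulatory T cells formed a further list. Of 16, 14 were tested, with 2 higher, 1 lower and a median of 0.34, where 9.43% of all genes were called higher and 7.98% lower. Il7r, the interleukin-7 receptor chain that sustains T cells, rose by 1.50 (SE 0.38, edgeR adjusted p = 0.0190), and Il2ra, the CD25 chain of the interleukin-2 receptor, by 0.92 (SE 0.19, adjusted p = 0.00702). Foxp3, the regulator of regulatory T cells, stayed below the filter, with 2, 7 and 4 counts in transgenic high-fat libraries, 0, 4 and 7 in transgenic controls, 10, 6 and 2 in wild-type high-fat libraries and 7, 5 and 4 in wild-type controls.

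Of 22 further cytotoxic and NK genes, 15 were tested and 3 rose, where 9.43% of all genes were called higher, with a median of 0.51. Klrk1, the activating receptor NKG2D, rose by 1.34 (SE 0.24, edgeR adjusted p = 0.00350), Eomes, a transcription factor of NK and CD8 T cells, by 1.76 (SE 0.50, adjusted p = 0.0310), and Tyrobp, the DAP12 adaptor that macrophages also use, by 0.58 (SE 0.11, adjusted p = 0.00436). Eomes lay below 0.478 CPM in every control library and so passed the filter through high-fat libraries alone. Gzmm, granzyme M, was at -1.46 (SE 0.49, adjusted p = 0.0579).

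Chemokines and chemokine receptors of these cells showed the most calls of any pathway list. Of 15, 13 were tested and 8 rose, where 9.43% of all genes were called higher, none fell, and the median was 1.05. Cxcl10 (1.36, SE 0.21, edgeR adjusted p = 0.00168) and Cxcl9 (1.05, SE 0.21, adjusted p = 0.00582) encode interferon-induced ligands of Cxcr3. Ccl22, a ligand of Ccr4, rose by 1.43 (SE 0.28, adjusted p = 0.00599) and Cxcr4 by 1.23 (SE 0.25, adjusted p = 0.00729). Ccl5, Cxcr3 and Cx3cr1 were also called higher, and myeloid cells express several genes of this list too. In transgenic tissue 6 of the 13 were called, where 8.73% of all genes were, against 1, Cxcl10, in wild-type tissue, where 1.14% of all genes were. The difference between these counts was not tested.

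Among cytokines that maintain T and NK cells, some were lower on the high-fat diet. Of 12, 5 were tested, 3 fell and none rose, where 7.98% of all genes were called lower, with a median of -0.48. Il33 (-0.86, SE 0.20, edgeR adjusted p = 0.0119) and Il18 (-0.65, SE 0.13, adjusted p = 0.00756) encode an alarmin and a cytokine released by inflammasomes, and Il15ra (-0.48, SE 0.14, adjusted p = 0.0315) encodes the chain that presents interleukin-15. Il15 itself was at 0.03 (SE 0.13, adjusted p = 0.880). Mesothelial markers were lower in the same libraries. They summed to 95.4 to 290.4 CPM in transgenic high-fat tissue, against 465 to 568 CPM in transgenic controls, and to 300.2 to 392 CPM in wild-type high-fat tissue, against 443 to 784 CPM in wild-type controls. The diets did not overlap in this sum, and its part in the cytokine differences was not tested. Of 11 MHC class I and antigen processing genes, 3 rose, where 9.43% of all genes were called higher, none fell, and the median was 0.09. Nlrc5, the transactivator of MHC class I genes, rose by 0.66 (SE 0.11, adjusted p = 0.00245).

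Markers of other cell types were read beside these results. Dendritic cell markers summed to 31.9 to 38.6 CPM in transgenic high-fat tissue, against 24.2 to 27.2 CPM in transgenic controls, and to 36.7 to 43.2 CPM in wild-type high-fat tissue, against 23.3 to 25.5 CPM in wild-type controls, so the diets did not overlap in this sum. Much of the difference was Itgax, at a mean of 8.20 against 1.42 CPM in transgenic tissue and 10.6 against 2.38 CPM in wild-type tissue. Without Itgax, the sums of the transgenic groups overlap and those of the wild-type groups do not. Of the 6 markers, 4 rose, where 9.43% of all genes were called higher. Among them were Itgax (2.32, edgeR adjusted p = 0.000334) and Flt3 (1.66, adjusted p = 0.00138). Zbtb46, the most abundant of the 6, was not called. It averaged 16.7 CPM in transgenic high-fat tissue, against 16.8 CPM in transgenic controls, and 15.9 CPM against 13.5 CPM in wild-type tissue. Macrophage markers summed to 365 to 454 CPM in transgenic high-fat tissue, against 287 to 371 CPM in transgenic controls. In wild-type tissue they summed to 361 to 374 CPM on the high-fat diet, against 317 to 389 CPM on the control diet. Of the 6 macrophage markers, 2 were called higher, against the same 9.43% of all genes. The part of dendritic cells and macrophages in the diet differences of Cd4 and the chemokine genes was not tested.

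Visceral fat can hold lymph nodes, so markers of B cells and of lymph node stroma were read too. B cell markers summed to 4.47 to 13.7 CPM in transgenic high-fat tissue, against 3.80 to 6.75 CPM in transgenic controls, and to 5.34 to 6.58 CPM in wild-type high-fat tissue, against 7.88 to 18.9 CPM in wild-type controls. None of the 6 B cell markers tested was called by edgeR, and their median diet difference was 1.15 in transgenic tissue and -1.01 in wild-type tissue. Lymph node stroma markers summed to 3.04 to 22.4 CPM in transgenic high-fat tissue, against 14.3 to 41.6 CPM in transgenic controls, and to 4.47 to 18.2 CPM in wild-type high-fat tissue, against 6.46 to 22.7 CPM in wild-type controls. In transgenic high-fat tissue the 22.4 CPM was the second library, the one with 102 CD3 counts, and the others had 3.04 and 5.21 CPM. That library held 341 counts of Cxcl13, a chemokine of lymphoid follicles, against 17 and 7 in the other transgenic high-fat libraries, and 7 counts of Glycam1. Other markers did not set it apart. It held 78 counts of Ccl21a and 8 of Ccl19, against 63 and 29 in the third library, and 42 of Chst4, against 38 in the first. Its B cell sum was 209 counts, against 285 in the third. Without the second library Cd8a was the only member called. None of the 4 lymph node stroma markers tested was called and their median averaged over genotypes was -1.01, and Glycam1, of lymph node venules, was at 0 in 9 of the 12 libraries. Their part in the T cell values was not tested.

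**Figure D3:**
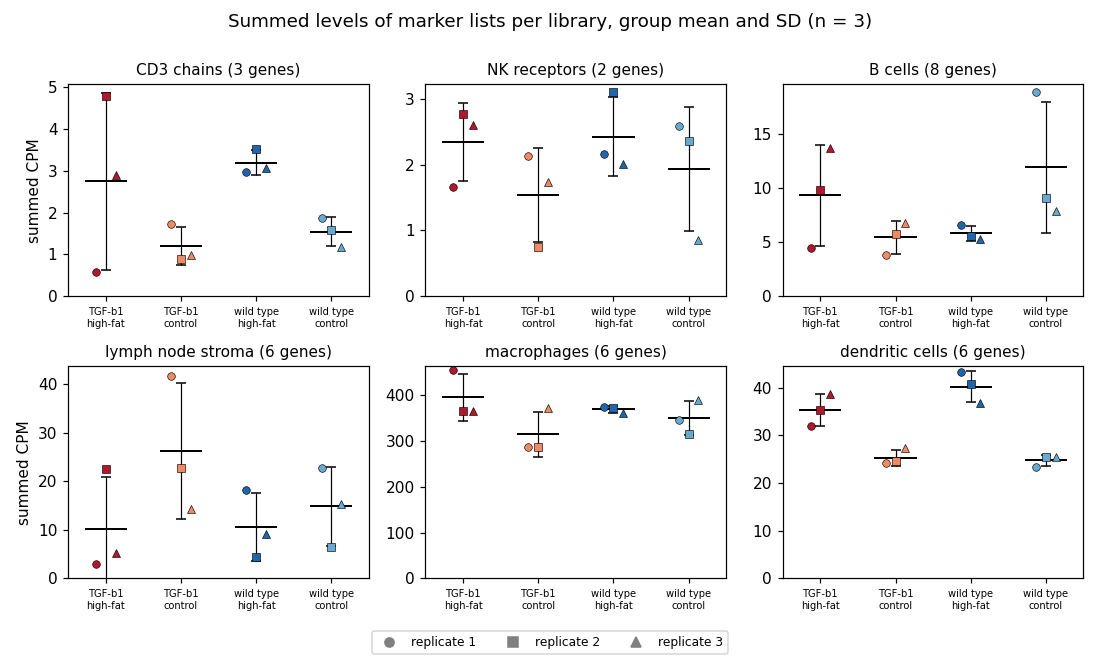
Summed CPM of marker lists in each library, with the high-fat groups left of their controls and bars for the mean and SD of 3 libraries, cut at 0. The CD3 sum spans 0.570 to 4.78 CPM in transgenic high-fat libraries and 0.895 to 1.73 CPM in transgenic controls, while the B cell sum reaches 18.9 CPM in wild-type controls.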

How the data were processed

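RNA-seq libraries were grouped by sample title. The authors deposited raw whole-number counts per gene for each of the 12 libraries, with no scaling. The tools named, per the submitters' processing notes, are HISAT2 2.2.0, HTSeq 2.0 and DESeq2 1.32.0, and the build is mm10. Strand setting and annotation: not given in the sources used here. Reads of overlapping genes cannot be told apart. The 5 summary entries (16.8% to 21.0% of reads) stayed out of library sizes. Per the file headers, the authors' DESeq2 tables give a mean normalized count (a signal), a log2 fold change, a Wald score and a p-value per gene, and they are quoted only where named.

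CPM is the count per 1000000 gene counts. Genes were kept with edgeR 4.0.16 (R 4.3.3) filterByExpr (minimum count 10, total 15), leaving 16550. TMM-scaled counts of all 12 libraries entered a group-means quasi-likelihood model with 8 residual degrees of freedom and Benjamini-Hochberg adjustment over all genes, called below 0.05. The averaged diet effect is the mean high-fat group minus the mean control group. DESeq2 1.42.0 was an alternative. The model was tested on simulated data. The SE is the log2 difference over the square root of F. Correlations used log2 CPM with a prior count of 2. Exon lengths and coordinates follow the GENCODE M21 and RefSeq GRCm38.p6 annotations, and promoters were found for 8 of the 10 genes. Counting intervals cover counting error only, as reads are not independent molecules. Named genes were all 10 members, up to 4 genes of smallest p per pathway list, and the 8 genes most correlated with Cd3e and with Nkg7. Some listed genes count in the lists but are not reported here by name. Members, lists and alternatives were chosen with earlier results of these data known. No 2 libraries agreed within sampling noise (lowest chi-square over its degrees of freedom 20.7 among 66 pairs).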

Additional observations from a re-analysis of the deposited data

How the results depend on the processing

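The effect of settings is given as genes called at an adjusted p below 0.05. In wild-type tissue, where 188 genes were called for diet, the count was 683 without the filter, 847 with DESeq2, 32 without the epithelium-rich libraries and 23 without the muscle-rich libraries. In transgenic tissue (1445) it was 826 without the epithelium-rich libraries and 764 with 6 libraries alone. For the averaged diet effect (2882) it was 1865 without the epithelium-rich libraries. For the transgene on the control diet (6) it was 269 without the filter, 256 with DESeq2, 1 without the epithelium-rich libraries, 16 without the muscle-rich libraries and 0 with 6 libraries alone; on the high-fat diet (0) it was 5 without the filter and 9 with DESeq2. For the interaction (0) it was 53, 23 and, without the epithelium-rich libraries, 1. Of the 10 genes, those called in transgenic tissue (1) became 2 without the filter, 2 with DESeq2, 0 without the epithelium-rich libraries and 0 with 6 libraries alone, and those called for the averaged effect (4) became 1 without the epithelium-rich and 1 without the muscle-rich libraries.

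Leaving out 1 library at a time, the counts ran from 0 to 269 in wild-type tissue, 543 to 1505 in transgenic tissue, 1868 to 2992 averaged, 0 to 58 for the transgene on control diet and 0 to 8 for the interaction, and members called ran from 1 to 6 averaged and 0 to 1 in transgenic tissue. The sign of 5 differences changed in such fits: Gzma from -0.24 to 0.57 and Ncr1 from -0.36 to 0.47 in wild-type tissue, Cd3g from -0.023 to 1.11 and Gzma from -0.46 to 0.75 in transgenic tissue, and Gzma from -0.11 to 0.49 averaged. The causes were not tested.

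Deviations of libraries sharing a replicate number correlated at -0.11 to 0.27, with no value for libraries of different numbers to set beside them. Whether the numbers mark a pairing was therefore not tested, and the main fit did not use them. With the replicate block, 99 genes were called in wild-type tissue and 0 for the transgene on control diet, members called were 0 in transgenic tissue and 3 averaged (Cd3e at 1.69, adjusted p = 0.0669), and Cd3d in transgenic tissue was at 2.10 (adjusted p = 0.0667). With counts of 1 to 66 per gene and library, depth limits every value here.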

Other observations

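Markers of lining and parenchymal cells were measured in the same libraries. Of 5 mesothelial markers, 3 fell with the diet averaged over genotypes by edgeR (Krt19, Upk3b and Wt1), where 7.98% of all genes were called lower. The list median was -0.93 on the log2 scale. The second transgenic control library, which is epithelium-rich, held 2710 of the 5388 Krt19 counts of its group. Of 6 epithelial markers, 3 fell (Cdh1, Epcam and Trp63), against the same 7.98% of all genes, with a median of -2.17. The highest sums of this list were those of the 2 control libraries named above. Of 5 adipocyte markers, 1 rose, the hormone gene Lep, where 9.43% of all genes were called higher. The median of that list was 0.03. None of the 4 striated muscle markers tested was called by edgeR, and their median was 0.28.

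The receptor gene row Tcra, picked after its values were seen, had 21, 16 and 15 counts in transgenic high-fat libraries, against 13, 17 and 13 in transgenic controls, and 22, 44 and 31 in wild-type high-fat libraries, against 17, 8 and 9 in wild-type controls. Only the wild-type groups were separate. The first transgenic high-fat library, lowest in CD3 counts, was the highest of its group for Tcra.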
